A study of Mus musculus with 12 samples.

Results

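Spon2, Mgp and Etl4 are 3 of the 54447 features in the count table of a doxycycline (dox) induction experiment, and all 3 were among the 13608 genes with enough counts to be tested. They were chosen on their measured values, as genes outside the receptor and kinase families that moved with dox in both cell populations of the study. Their differences between dox and no dox are therefore given as a description, without a test. The tests below concern other contrasts of the same libraries. Among these, differences of dox effects, between populations or between libraries with different label endings, are built from the effects that the choice used.

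NIH3T3 mouse embryonic fibroblasts, an established line, carried one of a pair of sequences under a dox-inducible promoter in a lentiviral vector that also encodes the Tet activator. N-VEGF is the stretch cut from the N terminus of the long form of VEGF, here with a His tag, and NLS-N-VEGF is the same protein with the nuclear localization sequence (NLS) of Cas9. The experiment asked which transcripts change when N-VEGF is placed in the nucleus of normoxic cells. Each population was sequenced uninduced (no dox) and induced (with dox), which makes 4 groups of 3 RNA libraries. Every group carried the inducible vector, and cells with an empty vector and dox were not analysed here, so the drug and the induced protein cannot be told apart. The labels do not say that libraries came from separate cultures, so p-values measure the spread between these libraries, which may be technical.

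SPON2 (spondin 2, also called mindin) is a secreted matrix protein with a thrombospondin type 1 repeat that binds integrins on leukocytes and takes part in innate recognition of microbes. MGP (matrix Gla protein) is a small secreted protein whose glutamates are carboxylated with vitamin K, and it is known as an inhibitor of calcification in arteries and cartilage and as a binder of bone morphogenetic proteins (BMPs). Etl4, also known as Skt or sickle tail, encodes a coiled-coil protein that is known from the notochord and the nucleus pulposus of the intervertebral disc, where its mutation deforms the tail vertebrae of mice.

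Spon2 (ENSMUSG00000037379) lies on chromosome 5 from 33198184 to 33218455 on the minus strand of GRCm38, and Mgp (ENSMUSG00000030218) on chromosome 6 from 136872435 to 136875823 on the minus strand. Neither shares an exonic base with another annotated gene, so their counts have no overlapping partner. Etl4 (ENSMUSG00000036617) spans 900934 bases of chromosome 2, from 19909780 to 20810713 on the plus strand, with 20 annotated transcripts of which 11 are coding. The joined exons of Etl4 measure 16067 bases, against 2947 in Spon2 and 1187 in Mgp. The antisense gene Gm13362 overlaps 0.921% of the exonic bases of Etl4, and the strand setting of the counting is not given in the sources used here, so reads of these bases cannot be assigned to a strand.

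RefSeq promoter windows were at hand for Etl4 alone, at 3 start sites that lie 229600 bases apart from first to last. The study concerned hypoxia genes, so the 250 bases before each start were searched on both strands for ACGTG and GCGTG, the core letters bound by hypoxia-inducible factor. The window of the second start is shown because it alone held matches, and capitals mark them. It covers chr2:20509797-20510046 of GRCm38.p6 on the plus strand, and the start follows its last base.
Etl4 second start: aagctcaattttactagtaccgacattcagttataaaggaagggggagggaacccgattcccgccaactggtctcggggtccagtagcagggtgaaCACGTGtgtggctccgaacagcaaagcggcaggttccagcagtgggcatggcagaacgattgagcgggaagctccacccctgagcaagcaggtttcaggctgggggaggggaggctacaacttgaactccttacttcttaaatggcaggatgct
The capitals hold 2 overlapping ACGTG matches, 1 on each strand, which begin 154 and 153 bases before the start. The 6 letters together also spell the palindromic E-box of basic helix-loop-helix factors. Matches of this kind were found in 12679 of 32851 mouse promoter windows of the same length, or 38.6%, so their presence does not single out Etl4. The window had 54.8% G and C, against 38.4% and 43.2% in the windows of the other starts. The counts are summed over all transcripts and do not tell which start was used.

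Total counts lay between 13549331 and 18982127 per library. A floor of 3 counts, a fixed setting, lay at 0.158 to 0.221 counts per 1000000 counts (CPM). All 9 fibroblast markers were above 1 CPM, with a summed level of 11252 to 13514 CPM, against 0.888 to 1.84 for epithelial and 2.40 to 5.77 for leukocyte markers. The smooth muscle, chondrocyte and osteoblast lists, described further below, were higher than these last lists, each at 44.6 CPM or more. The label of each library ends in one of a pair of numeric suffixes, here called suffix a (libraries 1 and 2 of each group) and suffix b (a further library 2), which the labels do not explain. The suffix separated the libraries on the first principal component, which held 58.1% of the variance. On the second (11.3% of the variance) library 1 of uninduced N-VEGF cells stood off, at 21.9 against -7.47 to 7.36 for the other 11 libraries. In the lists of values below, the 3 values of a group are always in the order library 1 with suffix a, library 2 with suffix a and library 2 with suffix b.

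Reads of the construct insert were checked first. They numbered 5, 7 and 12 in uninduced NLS-N-VEGF cells and 48, 35 and 173 in induced ones. N-VEGF cells held 5, 10 and 7 before induction and 121, 149 and 268 after it. Every dox library was above every library without dox, and within each dox group the library with suffix b held the most. On the log2 scale the insert rose by 4.62 (SE 0.67) in N-VEGF cells (edgeR adjusted p 0.0412). In NLS-N-VEGF cells the value was 3.31 (SE 0.67), with an edgeR adjusted p of 0.557, or 9.3e-05 with the replicate label as a block.

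Spon2 was the most abundant of the 3 genes per joined exon length in induced cells. It had more transcript in all 6 dox libraries than in any library without dox. The choice used this difference, and the share of all tested genes separated like this was not counted, so nothing is read from it. Uninduced NLS-N-VEGF cells held 588, 505 and 402 counts of Spon2, or 33.8, 31.7 and 28.7 CPM. With dox they held 1703, 1057 and 1134 counts, or 91.2, 77.8 and 67.1 CPM. The lowest dox library was thus well above the highest one without dox, and the library with suffix b was the lowest in both groups. In N-VEGF cells, Spon2 stood at 36.1, 36.2 and 36.9 CPM before induction, the tightest of all groups of the 3 genes. With dox it stood at 82.6, 77.1 and 57.1 CPM, from 1322, 1422 and 852 counts. The group means were 31.4 ± 2.57 (uninduced) and 78.7 ± 12.1 CPM (induced) in NLS-N-VEGF cells and 36.4 ± 0.435 and 72.3 ± 13.5 CPM in N-VEGF cells (SD, n = 3). Per length, these means were 10.7, 26.7, 12.4 and 24.5 RPKM (CPM per 1000 exonic bases), and Spon2 moved from the percentiles 67.9 and 71.4 of the tested genes to 86.6 and 85.1.

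Mgp moved the other way and was lower in all 6 dox libraries than in any library without dox. This separation too belongs to the difference that the choice used, and its share over all tested genes was not counted. Uninduced NLS-N-VEGF cells held 25.6, 24.5 and 17.99 CPM of Mgp (445, 390 and 252 counts), and induced ones 9.70, 8.83 and 11.96 CPM (181, 120 and 202 counts). N-VEGF cells held 29.0, 26.4 and 17.5 CPM before induction and 14.9, 14.3 and 8.57 CPM after it. The library with suffix b was the lowest of its group in 3 groups and the highest in induced NLS-N-VEGF cells. The means were 22.7 ± 4.11 (uninduced) and 10.2 ± 1.61 CPM (induced) in NLS-N-VEGF cells and 24.3 ± 6.03 and 12.6 ± 3.49 CPM in N-VEGF cells (SD, n = 3). Because the joined exons of Mgp are short, Mgp was the most abundant of the 3 per length before induction, at 19.1 and 20.5 RPKM. It stood at 8.56 and 10.6 RPKM with dox. Among the tested genes it went from the percentiles 81.1 and 82.0 to 62.4 and 67.7.

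Etl4 had the lowest level of the 3 genes without dox, and the largest ratio in N-VEGF cells. With dox its mean CPM was above that of Mgp in both populations, but per joined exon length it stayed the lowest. Uninduced NLS-N-VEGF cells held 75, 68 and 78 counts of Etl4, or 4.31, 4.27 and 5.57 CPM. With dox they held 180, 146 and 313 counts, or 9.64, 10.7 and 18.5 CPM. The lower pair of induced libraries differed little, and the library with suffix b was far above them. N-VEGF cells held 3.77, 3.51 and 5.42 CPM before induction and 15.5, 15.9 and 21.8 CPM after it (248, 294 and 326 counts). The means were 4.72 ± 0.736 (uninduced) and 13.0 ± 4.84 CPM (induced) in NLS-N-VEGF cells and 4.23 ± 1.04 and 17.8 ± 3.53 CPM in N-VEGF cells (SD, n = 3). Spread over its long exons, this was 0.294 and 0.264 RPKM without dox and 0.807 and 1.11 RPKM with dox. Etl4 therefore stayed in the lower part of the tested genes per length, at the percentiles 8.76 and 8.51 without and 19.7 and 23.6 with dox. The length joins the exons of all annotated transcripts, and these percentiles depend on that choice. Which transcripts were present was not determined. Fewer cells with the transcript and less transcript per cell cannot be told apart in these bulk samples, for any of the 3 genes.

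**Figure D1:**
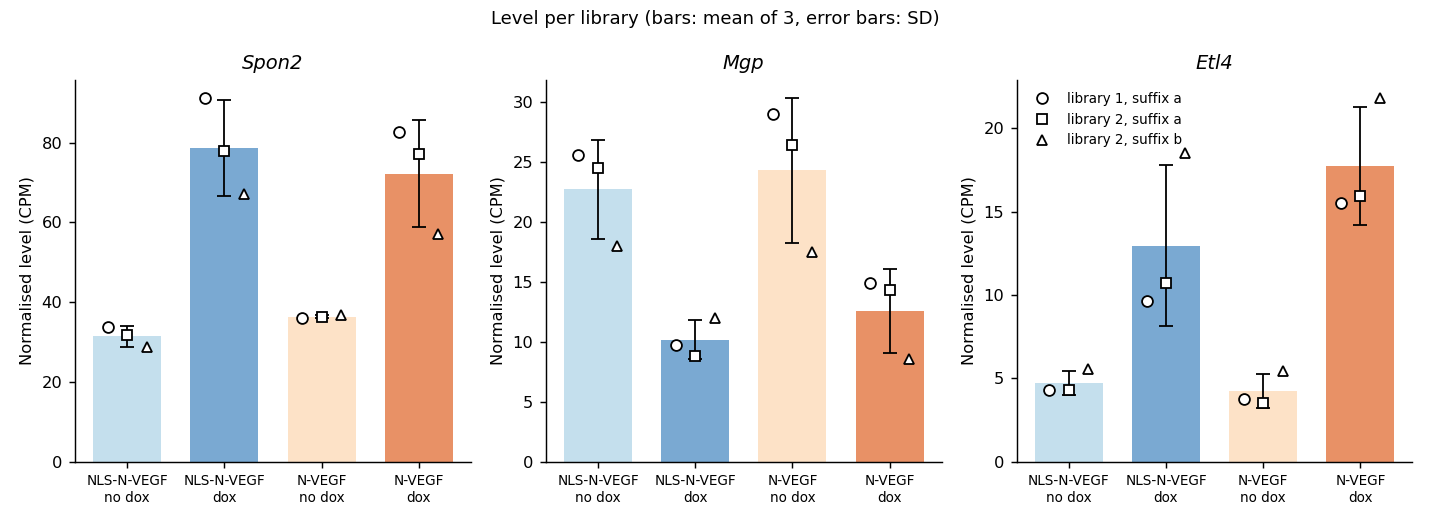
Normalised level in CPM (vertical axis from 0, one scale per gene) of Spon2, Mgp and Etl4 in the 4 groups, with bars for the mean of 3 libraries, error bars for the SD and open symbols for single libraries. Spon2 and Etl4 were higher and Mgp lower in every dox library than in every library without dox, and triangles (suffix b) lie highest of their group for Etl4 in all 4 groups. The choice of genes used the dox difference, and the share of all tested genes separated in this way was not counted.

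Ordered by level, Spon2 ran from uninduced NLS-N-VEGF through uninduced and induced N-VEGF to induced NLS-N-VEGF cells. Mgp had the lowest mean in induced NLS-N-VEGF cells, then induced N-VEGF, uninduced NLS-N-VEGF and uninduced N-VEGF cells. For Etl4 the order was uninduced N-VEGF, uninduced NLS-N-VEGF, induced NLS-N-VEGF and induced N-VEGF cells. For each gene, no difference between the neighbours that share a dox state passed edgeR's test (lowest adjusted p 0.9999 without a block and 0.619 with it), and the step between the dox states was the one the choice had used. The ranges of those neighbours overlapped for Mgp and Etl4 in both dox states and for Spon2 with dox. Without dox the Spon2 ranges lay apart, 28.7 to 33.8 CPM against 36.1 to 36.9 CPM, a difference that did not pass the test. The share of all tested genes with ranges apart in this contrast was not counted.

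The fitted dox effects of the chosen genes, as log2 fold changes, were 1.32 (SE 0.14) for Spon2, -1.16 (SE 0.24) for Mgp and 1.46 (SE 0.27) for Etl4 in NLS-N-VEGF cells. In N-VEGF cells they were 0.99 (SE 0.14), -0.94 (SE 0.24) and 2.06 (SE 0.27). The same effects with the replicate block were 1.32, -1.13 and 1.42 in NLS-N-VEGF cells and 0.97, -0.94 and 2.08 in N-VEGF cells. As background, edgeR called 3 of 13608 genes in NLS-N-VEGF cells (0.022%) and 5 in N-VEGF cells (0.0367%) without the block, and 17 (0.125%) and 15 (0.11%) with it. Nothing is read from these shares about the 3 genes, since the same contrasts chose them. Without the N-VEGF library that stood off, the N-VEGF effects were 0.98 for Spon2, -0.80 for Mgp and 1.99 for Etl4.

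Each same-labelled pair of libraries showed the direction of its gene. In NLS-N-VEGF cells the ratio of dox to no dox for Spon2 was 2.70, 2.45 and 2.34, and in N-VEGF cells it was 2.29, 2.13 and 1.55. For Mgp the dox libraries retained 37.9%, 36.0% and 66.5% of the level without dox in NLS-N-VEGF cells and 51.3%, 54.2% and 49.0% in N-VEGF cells. The Mgp pair with suffix b in NLS-N-VEGF cells was thus the weakest of the 6, while the other 5 lay between 36.0% and 54.2%. The Etl4 ratio was 2.24, 2.51 and 3.33 in NLS-N-VEGF cells and 4.11, 4.54 and 4.03 in N-VEGF cells. No NLS-N-VEGF pair reached the lowest N-VEGF pair for Etl4, and every NLS-N-VEGF pair exceeded every N-VEGF pair for Spon2. These ratios describe the dox effects that the choice used. How many of all tested genes separate in this way was not counted, so nothing further is read from it.

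**Figure D2:**
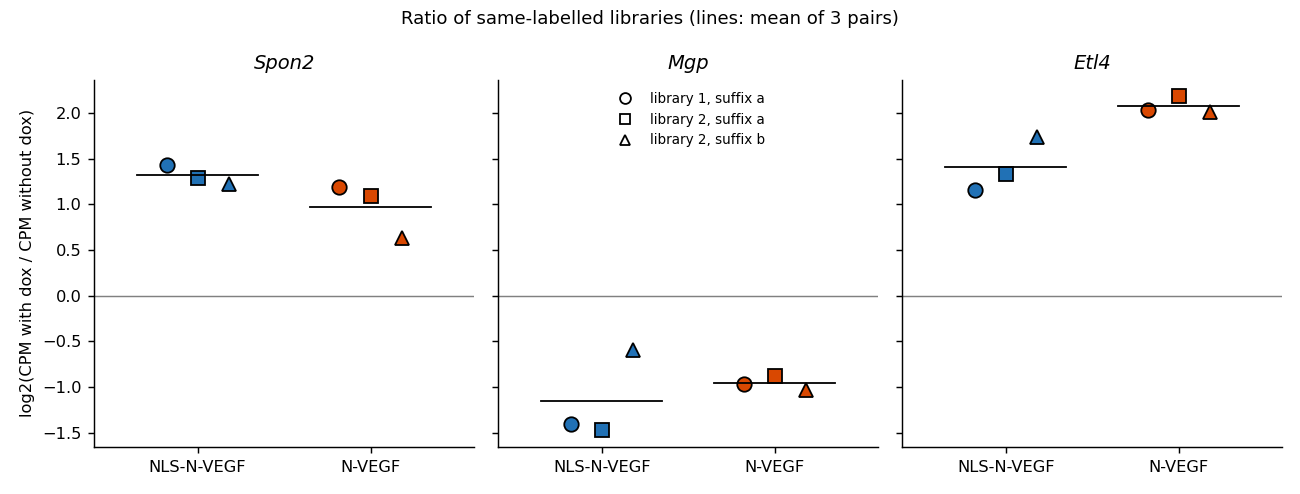
log2 ratio of CPM with dox to CPM without dox (vertical axis, shared scale) for the 3 same-labelled pairs of libraries in each population, with a line at the mean of the pairs and symbols for library number and suffix. All 12 Spon2 and Etl4 ratios are above 0 and all 6 Mgp ratios below 0, and the Etl4 ratios of N-VEGF cells lie above those of NLS-N-VEGF cells.

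Whether the dox effect differed between the populations was tested with the interaction term. It is the difference of the dox effects on which the genes were chosen, in both populations, so it is not independent of the choice. The NLS-N-VEGF effect minus the N-VEGF effect, on the log2 scale, was 0.33 (SE 0.20) for Spon2, -0.21 (SE 0.33) for Mgp and -0.60 (SE 0.37) for Etl4, with an edgeR adjusted p of 0.9999 for each. With the replicate block the differences were 0.35 for Spon2 (unadjusted edgeR p 0.0182), -0.18 for Mgp (0.436) and -0.65 for Etl4 (SE 0.19, unadjusted edgeR p 0.00372), and the adjusted p was 0.9998 for each. No gene of the 13608 passed in edgeR in either model (0%), and DESeq2 called 0 as well. Before adjustment, 116 genes had an edgeR p under 0.05 without the block and 464 did with it. Without the N-VEGF library that stood off, the differences were 0.34, -0.36 and -0.52 (edgeR adjusted p 0.9999 for each). Left out one at a time, single libraries moved the Spon2 difference between 0.19 and 0.44. The Mgp difference ran from -0.42 without the suffix b library of induced N-VEGF cells to -0.0090 without that of uninduced N-VEGF cells. The Etl4 difference ran from -0.95 without the suffix b library of induced NLS-N-VEGF cells (unadjusted edgeR p 0.00969) to -0.42 without library 1 of the same group. The lowest edgeR adjusted p of the 3 genes in these fits was 0.97. Over all 18 alternative fits the Mgp difference reached -0.50, and the lowest edgeR adjusted p was 0.414, for Etl4. The larger Spon2 and the smaller Etl4 response of NLS-N-VEGF cells therefore did not pass adjustment over all genes. The construct insert also had a lower dox effect in NLS-N-VEGF cells, by a log2 difference of -1.32 (SE 1.01, edgeR adjusted p 0.9999), and its part in the Etl4 difference was not tested.

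Between the populations at a fixed dox state, no difference of the 3 genes passed. With dox, NLS-N-VEGF cells differed from N-VEGF cells by a log2 fold change of 0.12 (SE 0.14) for Spon2, -0.31 (SE 0.24) for Mgp and -0.45 (SE 0.25) for Etl4 (edgeR adjusted p 0.9999 for each). With the block the Etl4 difference was -0.48 (SE 0.12), with an unadjusted edgeR p of 0.000683 and an adjusted p of 0.619, where 2 of 13608 genes passed (0.0147%). Single libraries moved this contrast too. Etl4 was at -0.80 without the suffix b library of induced NLS-N-VEGF cells (unadjusted edgeR p 0.00371) and at -0.27 without library 1 of the same group. Mgp was at -0.52 without the suffix b library of induced N-VEGF cells (unadjusted edgeR p 0.0384) and at -0.18 without library 1 of that group. The lowest edgeR adjusted p in these fits was 0.996. Over all 18 alternative fits Mgp reached -0.65, and the lowest edgeR adjusted p was 0.107 for Mgp and 0.119 for Etl4. Without dox the differences were -0.21 (SE 0.14) for Spon2, -0.10 (SE 0.23) for Mgp and 0.15 (SE 0.28) for Etl4 (edgeR adjusted p 0.9999 for each). With the block they were -0.22 (unadjusted edgeR p 0.0367), -0.09 (0.569) and 0.17 (0.287), and the lowest edgeR adjusted p was 0.939. Among induced cells edgeR called 0 genes without the block (160 at an unadjusted p under 0.05). Among uninduced cells it called 0 in both models (82 and 499 at an unadjusted p under 0.05), and DESeq2 called 0 genes in either contrast.

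The suffix of the labels, which the choice did not use, moved all 3 genes. With group in the model, libraries with suffix b had less Spon2 and Mgp and more Etl4 than those with suffix a. The log2 fold changes were -0.25 (SE 0.07, edgeR adjusted p 0.0105) for Spon2, -0.40 (SE 0.13, edgeR adjusted p 0.0161) for Mgp and 0.60 (SE 0.09, edgeR adjusted p 7.8e-05) for Etl4. This contrast called 6207 of 13608 genes (45.6%), so a call between suffixes does not set the 3 genes apart. Etl4 was the one gene of the 3 on the same side in all 4 groups, with the suffix b library at 1.30, 1.82, 1.49 and 1.39 times the mean of the suffix a libraries in uninduced and induced NLS-N-VEGF and uninduced and induced N-VEGF cells. For Spon2 the same ratios were 0.876, 0.794, 1.02 and 0.714, and for Mgp 0.718, 1.29, 0.631 and 0.587.

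Single libraries carried part of the suffix difference. The Spon2 call was lost without the suffix b library of induced NLS-N-VEGF cells (-0.22 on the log2 scale, edgeR adjusted p 0.0517) or of induced N-VEGF cells (-0.17, edgeR adjusted p 0.0949). The Mgp call was lost without the suffix b library of uninduced NLS-N-VEGF cells (-0.38, edgeR adjusted p 0.0688), of uninduced N-VEGF cells (-0.30, edgeR adjusted p 0.106) or of induced N-VEGF cells (-0.30, edgeR adjusted p 0.09997). Without the suffix b library of induced NLS-N-VEGF cells, the one in which Mgp was high, the Mgp difference was -0.63 (edgeR adjusted p 3.6e-05). All 3 calls held without the library of N-VEGF cells that stood off (-0.28, -0.38 and 0.61). Etl4 kept its call without any single library (0.47 to 0.65, highest edgeR adjusted p 0.00125). The construct insert was higher in suffix b as well, by 1.40 on the log2 scale (edgeR adjusted p 2.4e-05), and its part in these differences was not tested.

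Within each suffix each of the 3 genes kept its direction of dox, a description, since the choice used these same libraries. The mean log2 ratio of the pairs was 1.25 over 4 pairs of suffix a and 0.93 over 2 pairs of suffix b for Spon2. For Mgp it was -1.18 and -0.81, and for Etl4 1.68 and 1.87. A model with a term for dox by suffix was added after the data were seen. The term is a difference of the dox effects that the choice used, so it is not independent of the choice. The dox effect in suffix b minus that in suffix a was -0.33 (SE 0.12) for Spon2, 0.39 (SE 0.24) for Mgp and 0.19 (SE 0.19) for Etl4. Their edgeR adjusted p-values were 0.728, 0.736 and 0.811, and the unadjusted ones 0.0162, 0.126 and 0.331. This term called 0 of 13608 genes in edgeR and 0 in DESeq2, with 927 at an unadjusted edgeR p under 0.05. Without the suffix b library of induced NLS-N-VEGF cells, the Mgp term was -0.19 and the Etl4 term -0.0012. Without that of induced N-VEGF cells they were 0.94 and 0.39.

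**Figure D3:**
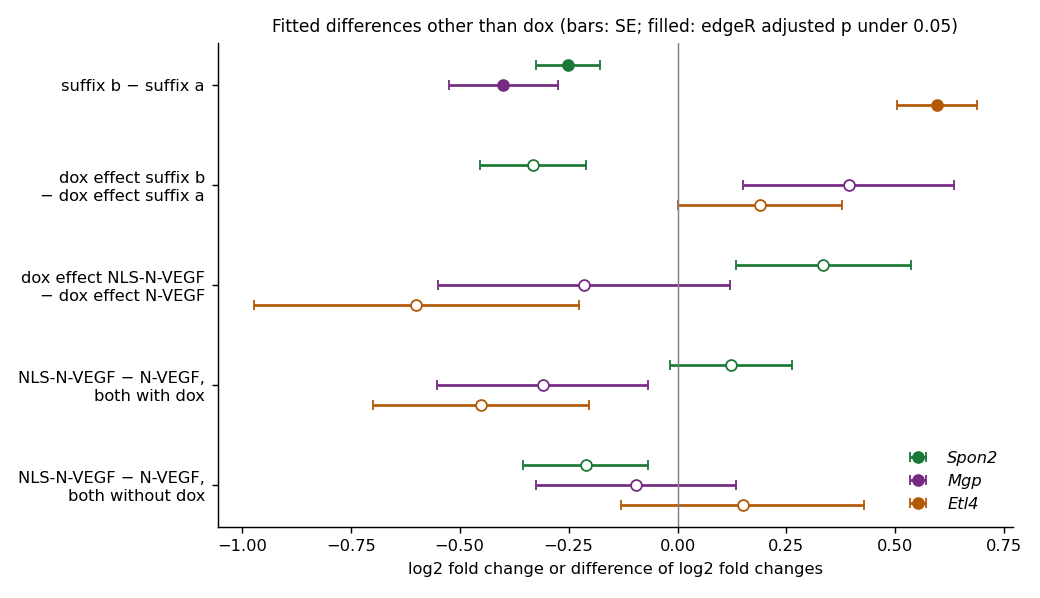
Fitted log2 differences of Spon2, Mgp and Etl4 (horizontal axis) for 5 comparisons other than the dox effects themselves, with bars for the SE and filled points where the edgeR adjusted p was under 0.05. The suffix is the only comparison of the 5 with filled points, at -0.25 for Spon2, -0.40 for Mgp and 0.60 for Etl4.

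Across the 12 libraries, the log2 level of Etl4 followed the construct insert with r = 0.979, that of Spon2 with 0.88 and that of Mgp with -0.78, each after subtraction of the mean of the same-labelled libraries. All 3 values contain the dox split, which the choice of genes had used. Among the 6 dox libraries, the insert stood at 2.57, 2.58 and 10.2 CPM in NLS-N-VEGF cells and 7.56, 8.08 and 17.9 CPM in N-VEGF cells. Etl4 stood at 9.64, 10.7 and 18.5 CPM and at 15.5, 15.9 and 21.8 CPM in the same libraries, an order like that of the insert. That order rests in part on near ties, since the insert gave 48 and 35 counts in the suffix a libraries of induced NLS-N-VEGF cells and 121 and 149 in those of induced N-VEGF cells, and the counting intervals within both pairs overlap for the insert and for Etl4. The library with the most insert, of N-VEGF cells with suffix b, had the lowest Spon2 (57.1 CPM) and the lowest Mgp of the 6, at 8.57 CPM against 8.83 CPM in the next. The 2 libraries richest in insert both carried suffix b, so insert level and suffix cannot be told apart there.

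**Figure D4:**
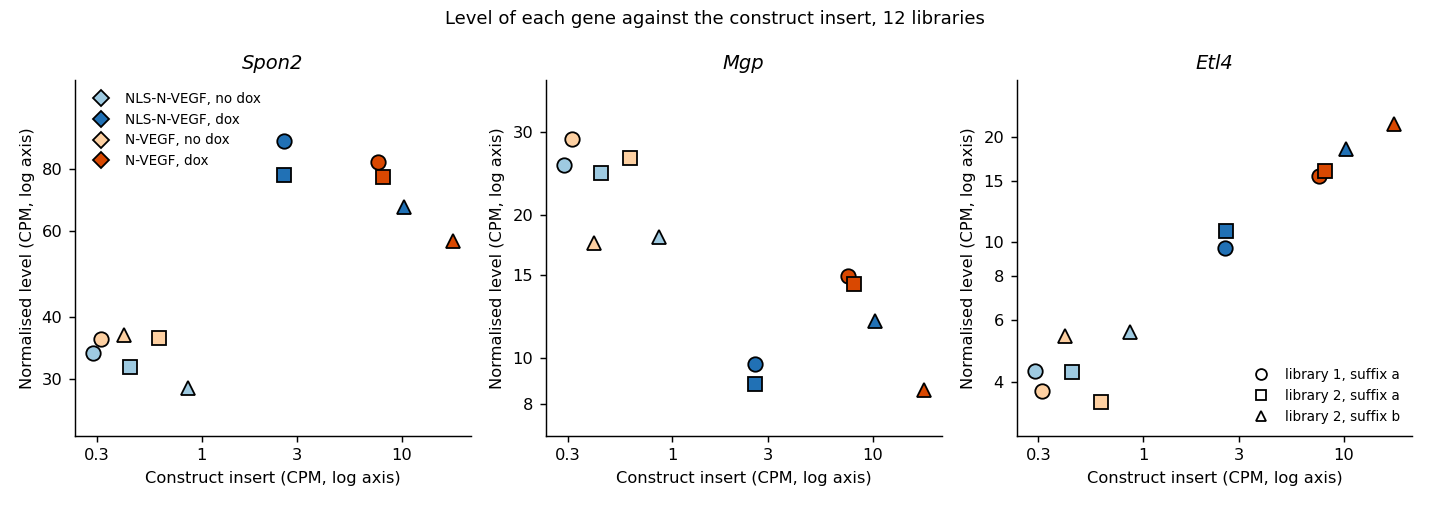
Level of Spon2, Mgp and Etl4 (vertical log axis, CPM) against the construct insert (horizontal log axis, CPM) in the 12 libraries, with colours for the 4 groups and symbols for library number and suffix. Among the 6 dox libraries Etl4 runs from 9.64 to 21.8 CPM as the insert runs from 2.57 to 17.9 CPM, with pairs of libraries close together on both axes, while Spon2 is lowest where the insert is highest.

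Genes with a like pattern were looked for by the Pearson correlation of log2 CPM over the 12 libraries, after subtraction of the mean of the same-labelled libraries, among 12058 genes of at least 1 CPM. These values describe the libraries, which share the dox split and the groups, and any gene that moves with dox scores high. Nearest to Spon2 were Map4k3, a kinase upstream of stress signalling (r = 0.96), Uhrf1bp1l (0.94), Sh3rf1, a scaffold of the JNK pathway (0.93), Xpnpep2 (0.93) and Nek7, a kinase needed for the NLRP3 inflammasome (0.93), and farthest Dact1 (-0.96) and the urea transporter Slc14a1 (-0.94). Nearest to Mgp were Txnip, the thioredoxin-interacting protein (0.96), Gas1 (0.96), Dlk1 (0.96), Gm43618 (0.96) and Cemip, a hyaluronan-degrading protein (0.96), and farthest the kinases Sgk1 (-0.97) and Oxsr1 (-0.95). Nearest to Etl4 were the adhesion receptor Adgrg1 (0.997), the construct insert (0.979), Sh3rf1 (0.970), Extl2 (0.968) and Map4k3 (0.966), and farthest Adamts1 (-0.94) and Plpp3 (-0.93).

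Among the 3 genes themselves, Spon2 and Etl4 had r = 0.92, Spon2 and Mgp -0.91 and Mgp and Etl4 -0.83 on the same measure. Adgrg1 had dox effects of 3.57 and 4.84 on the log2 scale in NLS-N-VEGF and N-VEGF cells, and Map4k3 had 0.69 and 0.79. Etl4 and Adgrg1 were both higher in suffix b, Adgrg1 by a log2 fold change of 0.98, whereas Map4k3 differed between suffixes by -0.06 (edgeR adjusted p 0.402). Spon2, with -0.25 between suffixes, had the opposite sign to Etl4 there.

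The neighbours of the 3 genes on their chromosomes were described next, as the 5 nearest tested genes on each side. Of the 30 neighbours, edgeR called 0 in either dox contrast, with or without the block. Since it called at most 0.125% of all tested genes there, 0 of 30 is near that background and nothing is read from it. In the fit with the block, 2 of the 30 had an unadjusted edgeR p under 0.05 in NLS-N-VEGF cells (7.27% of all tested genes) and 0 in N-VEGF cells (5.4%). Next to Spon2 lay Ctbp1, a transcriptional corepressor, at 29268 bases and Ywhah at 170218 bases, and the 10 neighbours had dox effects of -0.13 to 0.20 on the log2 scale. Next to Mgp lay Erp27 at 31488 bases and Wbp11 at 44202 bases, and its neighbours ranged from -1.38, for Hist4h4 (SE 0.50, mean 0.419 CPM), to 0.85. Next to Etl4 lay Arhgap21 at 37206 bases and Otud1 at 249197 bases, with a range of -0.22 to 0.39. Among the 26 neighbours of at least 1 CPM, the effects lay between -0.30 and 0.22.

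The genes related to the 3 by family or pathway were taken from lists chosen with results known. In every one of these lists 0 genes were called by dox, in either population, with or without the block. At a background of 0.022% and 0.0367% called without the block and 0.125% and 0.11% with it, that is near what lists of 4 to 23 tested genes would give, and no list is set apart or shown unchanged by it. Counts at an unadjusted edgeR p under 0.05 with the block are therefore given too, and they are to be read against 7.27% of all tested genes in NLS-N-VEGF and 5.4% in N-VEGF cells. Of 21 secreted or membrane proteins with thrombospondin type 1 repeats, relatives of Spon2, 8 were tested, and 2 and 0 had such a p in NLS-N-VEGF and N-VEGF cells. The median dox effect of the 8 on the log2 scale was 0.08 in NLS-N-VEGF and 0.12 in N-VEGF cells, against 0.00 over all tested genes. Spon1 had -0.09 (SE 0.43) and 0.64 (SE 0.43) at a mean of 1.02 CPM, Adamtsl1 had 0.61 (SE 0.86) and 0.29 (SE 0.82), and Thsd1 had 0.21 (SE 0.51) and 0.11 (SE 0.51). Of 8 integrin subunits and innate receptors tied to Spon2, 6 were tested, with 1 and 0 at an unadjusted p under 0.05 and medians of 0.03 and -0.00. The largest were Tlr4, the lipopolysaccharide receptor, with 0.22 and 0.18, the integrin subunit Itgb1 with 0.10 and 0.07, and the adaptor Myd88 with -0.10 and -0.01.

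The pathways in which Mgp acts were described by 4 lists. Of 19 genes of Gla proteins and the vitamin K cycle, 9 were tested, with 1 and 0 at an unadjusted p under 0.05 in NLS-N-VEGF and N-VEGF cells and medians of 0.02 and -0.02. The carboxylase Ggcx, which modifies MGP, had -0.01 and 0.19, the vitamin K reductase Vkorc1 -0.21 and -0.28, and Prrg1 0.45 and -0.07. Of 18 regulators of mineralisation, 8 were tested, with 2 and 4 at an unadjusted p under 0.05 and medians of -0.11 and -0.20, and 6 of the 8 were below 0 in N-VEGF cells. Enpp1, which makes the mineralisation inhibitor pyrophosphate, had -0.48 (SE 0.27) and -0.18 (SE 0.27), the decoy receptor Tnfrsf11b (osteoprotegerin) -0.29 and -0.36, and osteopontin (Spp1) -0.15 and -0.29.

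Of 28 BMP ligands, receptors, inhibitors and targets, 18 were tested, with 5 and 2 at an unadjusted p under 0.05 and medians of 0.01 in both populations. The BMP antagonist Chrd had 0.48 and 0.57, and the target Id4 had 0.52 and 0.26. Of 30 matricellular and related matrix proteins, 23 were tested, with 5 and 9 at an unadjusted p under 0.05, medians of -0.12 and -0.09 and 8 of the 23 above 0 in each population. Osteoglycin (Ogn) had -1.16 (SE 0.46) and -0.41, Wisp2 -1.03 (SE 0.38) and -0.53, and decorin (Dcn) -0.43 (SE 0.16) and -0.64 (SE 0.16). Decorin came nearest to a call, with an edgeR adjusted p of 0.0556 in N-VEGF cells with the block.

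Of 13 genes of the notochord and the intervertebral disc, 4 were tested, so most of the setting in which Etl4 is known was below the filter in these fibroblasts. Of the 4, 0 and 3 had an unadjusted p under 0.05 in NLS-N-VEGF and N-VEGF cells. Their medians were 0.01 in NLS-N-VEGF cells and -0.29 in N-VEGF cells. Sox5 had -0.13 (SE 0.21) and -0.57 (SE 0.21), Pax9 0.00 and -0.32, and Sox9 0.02 and -0.20, all transcription factors of the sclerotome or cartilage. Several markers of other cell types were well above 0. The smooth muscle list, mainly Acta2 and Cnn1, summed to 44.6 to 283 CPM over the 12 libraries and the chondrocyte list, mainly Sox9, to 120 to 165 CPM. Endothelial and adipocyte markers summed to at most 4.50 and 2.16 CPM. The sums overlapped between dox and no dox in both populations for each of these lists. The share of all genes whose ranges lie apart was not counted, so nothing is read from the osteoblast list, whose sums lay apart. Its sum, nearly all from Runx2, was 73.9 to 76.6 CPM in uninduced and 82.9 to 93.3 CPM in induced NLS-N-VEGF cells, and 61.1 to 78.1 against 83.8 to 88.9 CPM in N-VEGF cells. Runx2 had a log2 fold change of 0.21 and 0.26 (edgeR adjusted p 0.9998 and 0.9999). Its unadjusted edgeR p was under 0.05 in both populations, with and without the block. With the block this held for 7.27% and 5.4% of all tested genes. The part of Runx2 in the difference of Mgp was not tested.

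**Figure D5:**
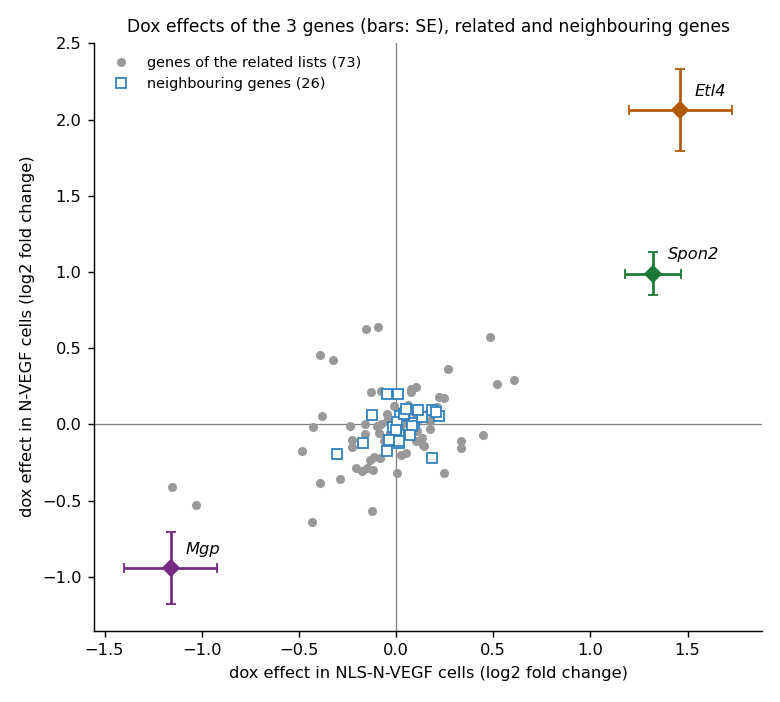
Dox effect in NLS-N-VEGF cells (horizontal axis) against the dox effect in N-VEGF cells (vertical axis), both as log2 fold changes, for Spon2, Mgp and Etl4 with SE bars, 73 other genes of the related lists and 26 neighbouring genes of at least 1 CPM. The 3 genes, chosen for these effects, lie far from the centre of the plot, and the neighbouring genes lie between -0.30 and 0.22. The related genes lie between -1.16 and 0.61 in NLS-N-VEGF cells and between -0.64 and 0.64 in N-VEGF cells.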

How the data were processed

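RNA was measured in 12 libraries of NIH3T3 cells (4 groups of 3, from the labels). Per the labels' processing notes, the authors used Trim Galore with cutadapt 1.10, TopHat2 2.1.0 with Bowtie2 2.2.6, genome build GRCm38 and HTSeq 0.6.1. What they deposited are unnormalized counts for each gene. The deposited totals were 13549331 to 18982127 counts per library. Reads had no molecular identifiers, so floors cover counting error only.

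Counts were fitted with edgeR 4.0.16 (R 4.3.3): filterByExpr by group, TMM scaling and a quasi-likelihood F test with 1 mean per group, on all 12 libraries. Adjusted p-values are Benjamini-Hochberg over all 13608 genes, two-sided, with a threshold of 0.05. The suffix was tested with group in the model. CPM are TMM-scaled, and log2 CPM used a prior count of 2. The fits were tested on simulated data. Exon lengths and positions are from the GENCODE M21 annotation of GRCm38, which held 54409 of 54446 gene IDs, and promoter windows are from RefSeq (GRCm38.p6). The rule named the 3 genes, the construct insert, Adgrg1 and Map4k3, the 5 most and 2 least correlated genes, the nearest gene on each side and, of each list, called genes or else the 3 with the largest mean dox effect at 1 CPM or more. One gene under this rule is not reported here. Hist4h4, Gm13362 and Runx2 were named after their values were seen. The members and lists were chosen with earlier results of these data known.

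Replicate labels join a number and the suffix. Deviations from group means correlated by 0.541 on average over 18 same-labelled pairs across groups (lowest 0.319), so the label was also fitted as a block. This follows the suffix: libraries of different suffixes correlated by -0.561 (24 pairs), but differently numbered libraries of suffix a by 0.421 (0.169 to 0.602, 12 pairs). The difference of libraries 1 and 2 of suffix a correlated by only 0.041 over 6 pairs of groups, so the number itself hardly pairs libraries. The block lowered the biological coefficient of variation from 15.5% to 7.86%. All replicate pairs differed beyond sampling noise (chi-square). Alternatives were DESeq2 1.42.0, RLE scaling, other filters, suffix a alone, each library left out, unscaled CPM and correlation without subtraction.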

Additional observations from a re-analysis of the deposited data

How the results depend on the processing

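The dox effects of Spon2, Mgp and Etl4 kept their direction under all 18 alternatives in both populations. The genes were chosen for these effects on the same libraries, so this describes the fits and is no separate evidence. Leaving out single libraries gave 1.203 to 1.43 (Spon2), -1.31 to -1.06 (Mgp) and 1.11 to 1.64 (Etl4) in NLS-N-VEGF cells, and 0.88 to 1.13, -1.15 to -0.74 and 1.89 to 2.26 in N-VEGF cells. With the replicate block, the Etl4 effects were 1.42 and 2.08, and no call in the other contrasts of the 3 genes changed. The suffix difference lost calls only without single libraries, with ranges of -0.35 to -0.17 (Spon2) and -0.63 to -0.30 (Mgp). Signs turned in uncalled results: without dox, Mgp between the populations ranged from -0.30 to 0.0511 (0.0394 without the suffix b library of NLS-N-VEGF cells, 0.0511 without library 1 of N-VEGF cells). With dox, Spon2 ranged from -0.0204 (without the suffix b library of N-VEGF cells) to 0.23. The dox by suffix term ranged from -0.19 to 0.94 (Mgp) and from -0.0012 to 0.39 (Etl4), lowest without the suffix b library of induced NLS-N-VEGF cells.

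Counts of called genes moved more. In NLS-N-VEGF cells dox gave 3, but 11 with DESeq2, 53 with no filter, 17 with the block and 109 in suffix a alone, and 0 to 3 without single libraries (0 without any of the 3 uninduced NLS-N-VEGF libraries). In N-VEGF cells it gave 5, but 8, 36, 15 and 16, and 1 to 7. With no filter the interaction gave 1, the population contrasts 9 (dox) and 10 (no dox) and the dox by suffix term 20. Suffix a alone gave 4, 11 and 5 for the interaction and the population contrasts, and the block gave 2 with dox. The dox by suffix count was 0 to 3 without single libraries. Unscaled, Spon2 stood at 35.9 CPM in N-VEGF cells without dox. Without subtraction, 2, 1 and 3 of the 5 genes nearest to Spon2, Mgp and Etl4 were shared. The cause of these moves was not tested. Etl4 had the fewest counts of the 3 genes without dox, at 57 to 93 per library.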
